A study of Mus musculus with 18 samples.

Results

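The mRNA of Atf4 and of 9 genes known as its targets in the amino acid stress response was followed in mouse embryonic fibroblasts (MEFs) that were cultured in 2 kinds of serum medium and moved between them. The 10 genes were Atf4, Ddit3, Trib3, Sesn2, Ddit4, Asns, Psat1, Phgdh, Shmt2 and Gpt2, of 55487 genes in the deposited table. They were selected by name, from measured values of these same libraries that were already known, so their own values are given as a description. Where a member is said to pass or leave thresholds, these are the ones applied to all genes, and passing them is not evidence for the member. All 10 passed the filter on low counts and were among the 15381 genes tested. ATF4 is a transcription factor whose protein is made when a kinase phosphorylates eIF2alpha, a part of the machinery that starts translation, for example when amino acids are short or when the endoplasmic reticulum (ER) is under stress. It is controlled largely at translation, and it switches on genes that make, import and charge amino acids as well as genes that restrain growth. In fibroblasts the same program feeds serine and glycine synthesis and, through cysteine and glutathione, the defence against lipid peroxidation, the damage that kills a cell in ferroptosis.

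The cells were wild-type MEFs in complete medium made with either of 2 fetal bovine sera. Scm held the serum in which cells are sensitive to ferroptosis, and Rcm held the serum in which they are resistant. The S-Rcm groups held cells from Scm after 12 h or 24 h in Rcm, and the R-Scm groups held cells from Rcm after 12 h or 24 h in Scm, so that 6 groups of 3 libraries gave 18 in all. No group received a ferroptosis inducer according to the labels, and all groups share 1 cell line, which the labels call WT. The labels do not say whether replicates came from separate cultures, so that every p-value measures the spread between these libraries, which may be technical.

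Library totals ran from 14534906 to 20313715 counts. Of 10 fibroblast markers, 9 were over 10 CPM (counts scaled to a total of 1000000) in every library, while the 3 epithelial, 3 endothelial, 3 blood and 3 muscle markers had means under 1 CPM. The 3 neural markers Sox2, Tubb3 and Map2 had means of 15.0 to 57.8 CPM and a summed level of 61.5 to 112 CPM per library, and Tubb3 was 1.05 lower in Rcm than in Scm on the log2 scale (adjusted p = 0.00565, edgeR's quasi-likelihood test). The part of the cells that carry these transcripts in the results was not tested. In bulk RNA of this kind, fewer cells of a type and less RNA per cell cannot be told apart. For Rcm replicate 3, R-Scm 24 h replicate 1 and R-Scm 24 h replicate 3, the highest r with a library of another group exceeded the mean r with their own group by over 0.005. Other libraries had smaller gaps in that direction, R-Scm 24 h replicate 2 among them (0.000986). For comparisons with Rcm or R-Scm 24 h the medians of the members, and some of the calls and list medians, are given with and without the 3 libraries over 0.005. Without them R-Scm 24 h holds 1 library, replicate 2, which is then assumed to vary like the other groups.

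The promoters of the 10 genes were read for the core of the C/EBP-ATF response element, the composite site at which ATF4 binds DNA together with a C/EBP protein. The letters searched were TGATGNAA, where N is any base, on both strands, in RefSeq windows of 300 bases (250 before the start of the gene and 50 after it, GRCm38.p6). The core was in 3.97% of 32851 windows, which is 1219 of 27025 gene symbols (4.51%). It was in 2 of the 10 genes, Asns and Trib3, and in none of the windows of Atf4, Ddit3, Sesn2, Ddit4, Psat1, Phgdh, Shmt2 and Gpt2, which says only that these letters are not in those windows. Asns, which makes asparagine, held it on the forward strand 23 bases before the RefSeq start, in the first exon as GENCODE gives it. Trib3, a pseudokinase that damps ATF4 activity, held it on the reverse strand at base 15 after the RefSeq start, a position that lies before the start given by GENCODE. The Asns stretch is chr6:7693214-7693243 and that of Trib3 is chr2:152344028-152344057, both on the minus strand. They are shown with those of 3 other genes that are named in any case by the rule below and held the core. These are Chac1 (chr2:119351033-119351072, plus strand), Atf3 (chr1:191183420-191183459, minus strand) and the first of a pair in Slc7a11 (chr3:50443656-50443695, minus strand). Mthfd2 and Hspa5, which that rule names as well, held no core in their windows. Each stretch is written 5′ to 3′ along its gene, with the core in capitals.
Asns: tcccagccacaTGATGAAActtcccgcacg
Trib3: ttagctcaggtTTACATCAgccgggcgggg
Chac1: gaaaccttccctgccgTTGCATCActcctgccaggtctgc
Atf3: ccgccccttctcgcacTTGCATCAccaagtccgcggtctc
Slc7a11: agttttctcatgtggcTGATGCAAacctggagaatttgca
Among the other lists of pathway genes the core was in 5 of 11 ATF4 stress targets and 5 of 11 cytosolic tRNA synthetases with a window, and in 2 of 6 amino acid transporters, 2 of 9 further enzymes, 1 of 10 genes of the ER list, 0 of 5 eIF2alpha genes and 0 of 7 mTORC1 genes. A match of letters is a description and not evidence of binding.

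The 10 genes were not equally abundant. Per kilobase of exon, and as a mean over the 18 libraries, the level was 158 CPM per kb for Phgdh, 153 for Psat1, 124 for Shmt2 and 120 for Atf4. The length joins the exons of all annotated transcripts of a gene, and the order of the genes depends on it. The level of Phgdh leaves out the counts given to its pseudogenes, which are described below. Asns stood at 29.7 CPM per kb and Ddit3 at 20.5. The remaining 4 lay lower, with Ddit4 at 11.7, Gpt2 at 9.62, Sesn2 at 9.52 and Trib3 at 7.59 CPM per kb. The ranges over libraries of Phgdh (123 to 206), Psat1 (111 to 218), Shmt2 (87.2 to 163) and Atf4 (81.4 to 194) overlapped, as did those of the last 4 genes. Within libraries Phgdh lay above Shmt2 in 18 of 18 and above Psat1 in 13, whereas Shmt2 lay above Atf4 in 9, and no member of the last 4 lay above another of them in more than 16 of 18.

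**Figure D1:**
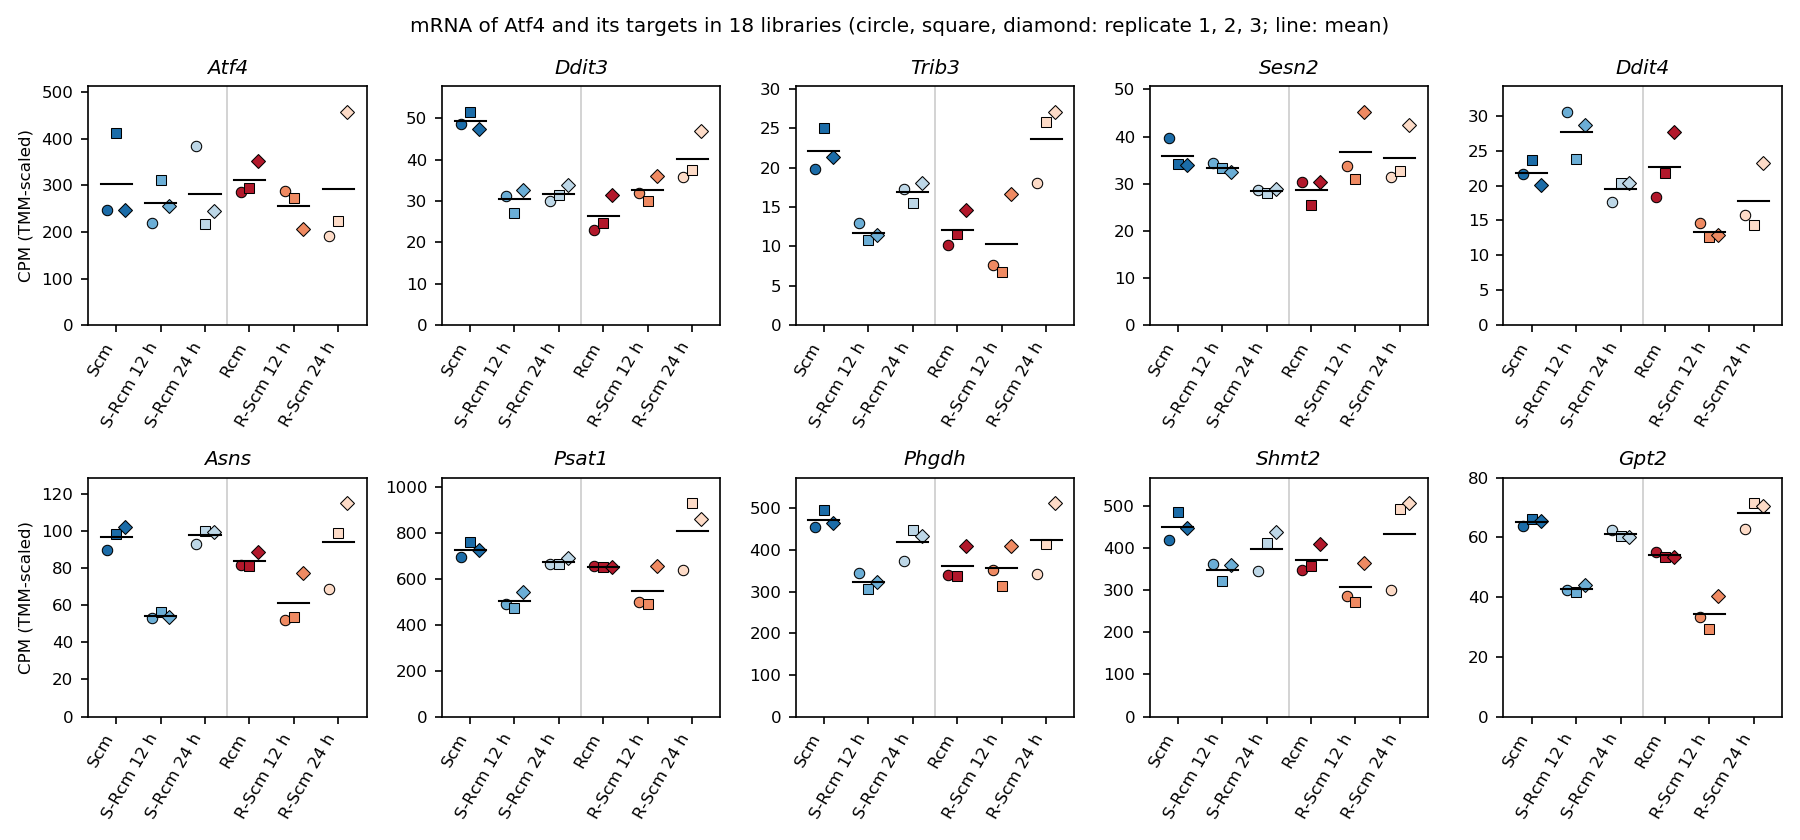
CPM after TMM scaling (y axis, from 0) of the 10 genes in each of the 18 libraries, by group (x axis), with replicates 1, 2 and 3 as circle, square and diamond and the group mean as a line. Ddit3 is at 47.5 to 51.6 CPM in the 3 Scm libraries, above all other libraries, whereas the enzymes Asns and Gpt2 are low at 12 h after either exchange and Atf4 varies within groups.

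Atf4 itself (ENSMUSG00000042406, GRCm38 chromosome 15, 80255184 to 80257541, plus strand) showed no order of the groups. It was at 248, 413 and 247 CPM in Scm and at 285, 295 and 351 CPM in Rcm. After the move to Rcm it was at 219, 311 and 256 CPM at 12 h and at 384, 216 and 244 CPM at 24 h. After the move to Scm it was at 288, 273 and 207 CPM at 12 h and at 192, 224 and 458 CPM at 24 h. In Scm, S-Rcm 24 h and R-Scm 24 h 1 library stood high and the other 2 low, and the groups overlapped in all 7 comparisons described here. The log2 fold change of Rcm against Scm was 0.04 ± 0.31 (SE), and those of the exchanges against their starting medium lay between -0.28 and -0.09, each with an SE of 0.31. That of R-Scm 24 h was -0.56 without its replicate 3 and 0.14 without its replicate 1. The groups accounted for 8.25% of the variance of its log2 CPM, against a median of 41.1% over all genes tested. Its SD within groups was 0.40 on the log2 scale, more than in 96.6% of the 500 genes nearest to it in level. The counts give the amount of Atf4 mRNA and not its translation.

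Ddit3 encodes CHOP, the transcription factor that links ATF4 to cell death. It was lower in Rcm than in Scm, and after each exchange its mean moved toward the level in the new medium. It was at 48.7, 51.6 and 47.5 CPM in Scm and at 23.1, 24.6 and 31.4 CPM in Rcm, so that all Scm libraries lay above all Rcm libraries. After the move to Rcm it was at 31.2, 27.2 and 32.7 CPM at 12 h and at 29.9, 31.5 and 33.8 CPM at 24 h, below every Scm library at both times. After the move to Scm it was at 31.9, 30.0 and 36.1 CPM at 12 h and at 35.9, 37.6 and 47.0 CPM at 24 h. The libraries at 12 h overlapped with Rcm, and those at 24 h lay above all Rcm libraries but still below every Scm library. The log2 fold change was -0.90 ± 0.13 for Rcm against Scm, -0.70 ± 0.13 and -0.63 ± 0.13 for S-Rcm at 12 h and 24 h against Scm, and 0.31 ± 0.13 and 0.61 ± 0.13 for R-Scm at 12 h and 24 h against Rcm. The value at 24 h in R-Scm moved between 0.50 and 0.76 over the alternatives and passed both thresholds in 7 of 14, not without Rcm replicate 1 or 2 or R-Scm 24 h replicate 2 or 3, and not with upper-quartile scaling, without a filter on low counts or with only those 2 groups in the fit. Over the alternatives the value of Rcm against Scm lay between -1.06 and -0.81. That of S-Rcm 12 h lay between -0.76 and -0.63, and that of S-Rcm 24 h between -0.68 and -0.59. A second identifier of the name, ENSMUSG00000116429, shares 105 exon bases with Ddit3 on the same strand and held exactly 1 count in each library, as 241 rows of the table did. Another 68 bases (3.97% of the exons) overlap with the methionyl-tRNA synthetase gene Mars1 on the opposite strand, whose reads cannot be told apart there if strand was not used in counting. Mars1 held 76192 counts over all libraries, 706% of those of Ddit3, and its share in the Ddit3 counts was not tested.

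Trib3 was at 19.8, 25.0 and 21.4 CPM in Scm and at 10.2, 11.6 and 14.6 CPM in Rcm. It was at 12.9, 10.8 and 11.5 CPM at 12 h and 17.3, 15.5 and 18 CPM at 24 h after the move to Rcm. It was at 7.66, 6.74 and 16.6 CPM at 12 h and 18, 25.8 and 27.1 CPM at 24 h after the move to Scm. The Rcm and both S-Rcm groups lay below all Scm libraries, and R-Scm 24 h lay above all Rcm libraries. The log2 fold change of R-Scm 24 h was 1.20 ± 0.26 against R-Scm 12 h and 0.96 ± 0.26 against Rcm. The replicate at 16.6 CPM stood apart from its group at 12 h, and without it the change between 12 h and 24 h was 1.71. In R-Scm 24 h the lowest replicate, at 18 CPM, was 1 of the 3 libraries named above, and without those 3 the change against Rcm was 1.24.

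Sesn2 and Ddit4 restrain mTORC1, the kinase complex that drives growth when amino acids are plentiful, Sesn2 as a leucine sensor and Ddit4 (REDD1) through the TSC complex. Sesn2 was at 39.7, 34.1 and 33.9 CPM in Scm, at 30.3, 25.4 and 30.3 CPM in Rcm and at 28.7, 28 and 28.8 CPM in S-Rcm 24 h, and both of the latter groups lay below all Scm libraries. In R-Scm it was at 33.7, 31.0 and 45.3 CPM at 12 h and at 31.4, 32.6 and 42.5 CPM at 24 h, above all Rcm libraries at both times. Ddit4 went the other way at 12 h. It was at 30.6, 23.8 and 28.7 CPM in S-Rcm 12 h, above the Scm values of 21.7, 23.6 and 20.1 CPM, and at 14.6, 12.7 and 12.9 CPM in R-Scm 12 h, below the Rcm values of 18.3, 21.8 and 27.7 CPM. The log2 fold changes at 12 h were 0.35 ± 0.17 and -0.76 ± 0.18. By 24 h Ddit4 was at 17.7, 20.4 and 20.3 CPM in S-Rcm and at 15.8, 14.4 and 23.2 CPM in R-Scm, and both groups overlapped with their starting medium. The fold change of Ddit4 at 12 h in R-Scm was -0.57 without the 3 libraries named above, of which Rcm replicate 3 enters this contrast. It also left the thresholds without Rcm replicate 2 or 3 and without R-Scm 12 h replicate 2 or 3, with values over all alternatives from -0.89 to -0.57.

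The 5 enzymes of amino acid synthesis had log2 fold changes of -0.83 to -0.37 at 12 h after the move to Rcm and of -0.66 to -0.02 at 12 h after the move to Scm. Asns was at 89.8, 98.2 and 102 CPM in Scm and at 53.1, 56.4 and 53.4 CPM at 12 h after the move to Rcm, with a log2 fold change of -0.83 ± 0.16, and it was back at 93.2, 100 and 99.6 CPM at 24 h. In the opposite exchange it was at 81.4, 81.2 and 88.8 CPM in Rcm, at 51.9, 53.9 and 77.4 CPM at 12 h and at 68.8, 98.9 and 115 CPM at 24 h. All 12 h libraries lay below those of the starting medium in both exchanges, and the 12 h and 24 h libraries did not overlap in S-Rcm but did in R-Scm. Leaving out any 1 library of the contrast of S-Rcm 12 h with Scm moved Asns out of the thresholds while its change stayed between -0.88 and -0.79.

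Gpt2, the mitochondrial alanine transaminase that turns glutamate and pyruvate into alanine and 2-oxoglutarate, had the smallest spread within groups of the 10 genes. It was at 64.0, 66.3 and 65.4 CPM in Scm, at 42.3, 41.7 and 44.2 CPM in S-Rcm 12 h and at 62.6, 60.5 and 60.2 CPM in S-Rcm 24 h. It was at 55.0, 53.6 and 53.5 CPM in Rcm, at 33.2, 29.2 and 40.5 CPM in R-Scm 12 h and at 62.9, 71.5 and 70.4 CPM in R-Scm 24 h. The 12 h libraries lay below those before and at 24 h in both exchanges, and the 24 h libraries of R-Scm lay above all Rcm libraries. At 12 h the log2 fold change was -0.61 ± 0.10 for S-Rcm and -0.66 ± 0.10 for R-Scm, and that from 12 h to 24 h in R-Scm was 0.99 ± 0.10, or 1.06 without the 3 libraries named above. Over the alternatives the first of these lay between -0.64 and -0.59. The second lay between -0.79 and -0.55, with the latter value without R-Scm 12 h replicate 2. The groups accounted for 94.3% of the variance of Gpt2.

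Psat1, Phgdh and Shmt2 act in 1 chain. Phgdh oxidises 3-phosphoglycerate in the first step of serine synthesis, Psat1 transaminates the product, and Shmt2 splits serine into glycine and a one-carbon unit in mitochondria. Psat1 was at 695, 758 and 723 CPM in Scm and at 490, 473 and 541 CPM in S-Rcm 12 h, and it was at 666, 665 and 690 CPM in S-Rcm 24 h. In the other direction it was at 655, 651 and 649 CPM in Rcm, at 497, 491 and 657 CPM in R-Scm 12 h and at 638, 929 and 861 CPM in R-Scm 24 h. The 12 h libraries of Psat1 lay below Scm without overlap, whereas in R-Scm 12 h replicate 3 lay above all of Rcm. Shmt2 had a log2 fold change of -0.37 ± 0.16 at 12 h in S-Rcm and of -0.27 ± 0.16 in R-Scm, with group means between 307 and 450 CPM. Phgdh was at 455, 495 and 464 CPM in Scm, at 340, 337 and 409 CPM in Rcm and at 344, 306 and 322 CPM in S-Rcm 12 h, and its change was -0.38 ± 0.13 for Rcm against Scm and -0.54 ± 0.13 for S-Rcm 12 h. In R-Scm 12 h it was at 351, 313 and 408 CPM, which overlapped with Rcm, and its change of -0.02 ± 0.13 was the nearest to 0 of the 5 enzymes.

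Phgdh shares sequence with processed pseudogenes, and part of its reads may have been split among them. The transcript of Gm7901 (ENSMUSG00000101431) matched Phgdh over 1597 bases at 98.8% identity and that of Gm9347 over 1608 bases at 97.4%. The counts given to Gm7901 were 32.2% to 37.5% of those of Phgdh in the same library, at 98.7 to 177 CPM, and those of Gm9347 were 4.02% to 6.17%. With the 3 summed, the level was 657 ± 31.5 CPM in Scm, 506 ± 61.8 in Rcm and 452 ± 31.9 in S-Rcm 12 h (SD, n = 3), and the log2 differences of -0.38 for Rcm against Scm and -0.54 for S-Rcm 12 h were those of Phgdh alone. Shmt2 shared 180 bases at 95% identity with 1 pseudogene that held 0.0542% of its counts, and no other member shared 100 bases or more at 95% identity with another gene, apart from the second Ddit3 identifier.

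**Figure D2:**
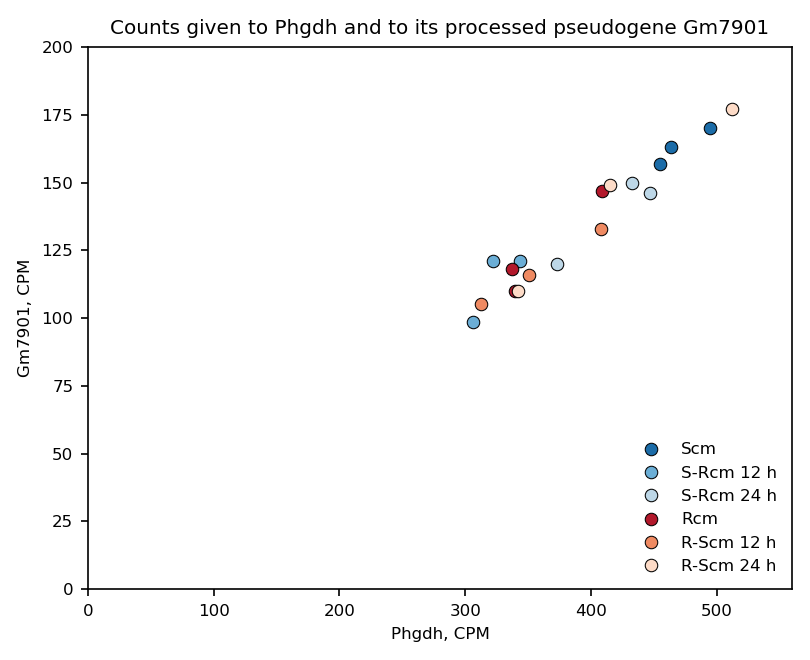
CPM of Phgdh (x axis) and of the processed pseudogene Gm7901 (y axis) in the 18 libraries, coloured by group, both axes from 0. The points lie along a line through the origin, at 32.2% to 37.5% of the Phgdh counts in every library.

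Read over time, the mean at 12 h lay below both the mean before the exchange and that at 24 h for 8 of the 10 genes in S-Rcm and for 8 of 10 in R-Scm. Over all genes tested, 32.1% and 37.6% did so. In S-Rcm the exceptions were Ddit4, above both, and Sesn2, between them. In R-Scm they were Sesn2, above both, and Ddit3, between them. All 3 libraries at 12 h lay below all those before and at 24 h for Trib3, Asns, Psat1, Phgdh and Gpt2 in S-Rcm (5 of 10, against 4.75% of all genes) and for Gpt2 in R-Scm (1 of 10, against 3.64%). At 24 h the means of the 5 enzymes were 88.3% to 101% of Scm in S-Rcm and 113% to 126% of Rcm in R-Scm, whereas Ddit3 stood at 64.4% of Scm and 153% of Rcm and Trib3 at 76.8% and 195%. The groups before the exchange were separate libraries and not the same cultures at an earlier time. No group is labelled as kept in its own serum for 12 h or 24 h after a change to fresh medium. The change of serum, fresh medium and time in culture therefore cannot be told apart in this course.

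**Figure D3:**
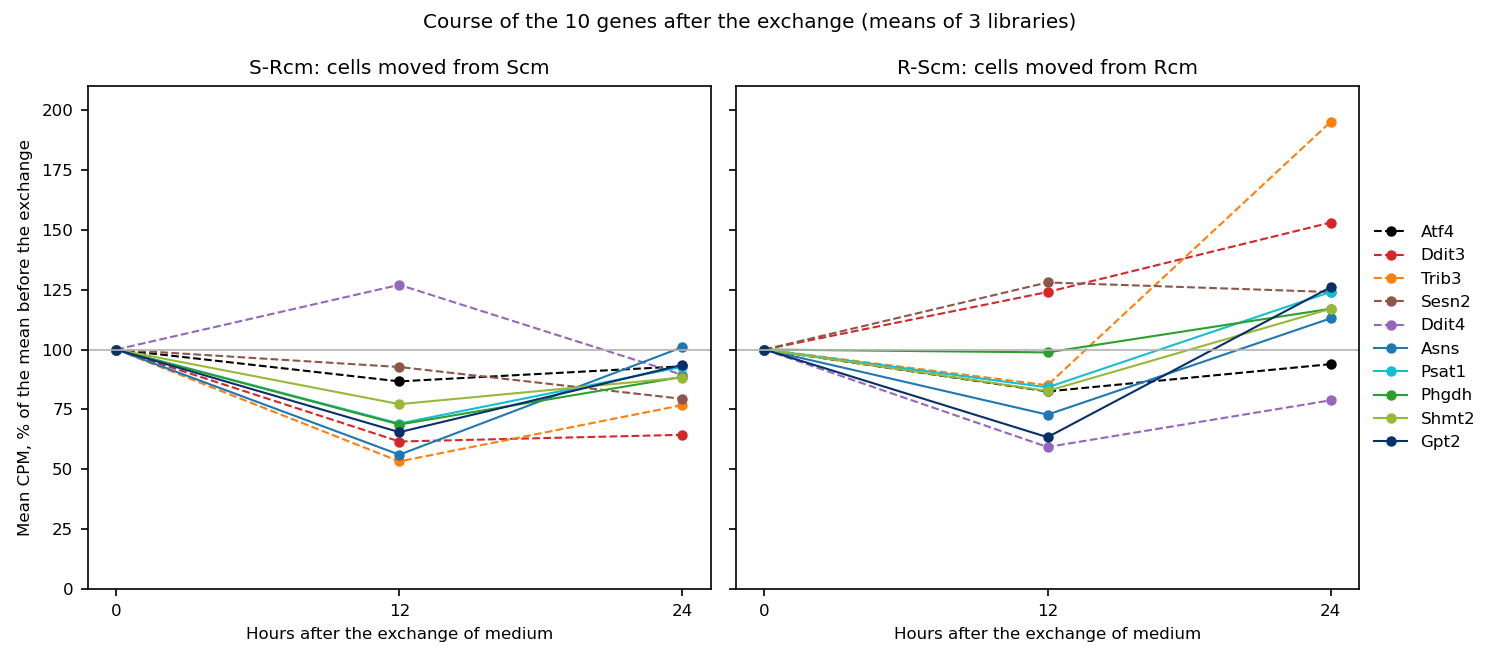
Mean CPM of 3 libraries at 12 h and 24 h as a percentage of the mean before the exchange (y axis), against hours after the exchange (x axis), with enzymes as solid lines and the other 5 genes as dashed lines. In S-Rcm the enzymes return to 88.3% to 101% by 24 h while Ddit3 stays at 64.4%, and in R-Scm Trib3 ends at 195%.

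The comparisons were also read against the whole table, with a gene called when its absolute log2 fold change was over 0.58 and its adjusted p under 0.05 in edgeR. Since earlier results of these contrasts were known when the genes were selected, their counts are set beside the background without being read as a result. In Rcm against Scm 1 member was called lower (Ddit3) and none higher, against 0.631% of all genes lower and 1.67% higher. In R-Scm 12 h against Rcm 2 were called lower (Ddit4, Gpt2) and none higher, against 1.22% and 1.51%. In R-Scm 24 h against Rcm 1 was called higher (Ddit3) and none lower, against 0.182% higher and 0.195% lower. In S-Rcm 12 h against Scm 3 were called lower (Ddit3, Asns, Gpt2) and none higher, against 0.26% and 0.598%. In S-Rcm 24 h against Scm 1 was called lower (Ddit3) and none higher, against 0.117% and 0.221%. From 12 h to 24 h 2 were called higher in R-Scm (Trib3, Gpt2), against 0.332% higher and 0.442% lower, and 1 in S-Rcm (Asns), against 0.065% higher and 0.091% lower. The calls at 24 h in S-Rcm, and from 12 h to 24 h in S-Rcm, were lost without any 1 of their libraries, and the 3 calls in S-Rcm 12 h went to 1 (Gpt2) without any 1 Scm library or S-Rcm 12 h replicate 2. From 12 h to 24 h in R-Scm, 5 members were called without R-Scm 24 h replicate 1, 4 without R-Scm 12 h replicate 3 and 1 (Gpt2) without any of the other 4 libraries. In R-Scm 24 h against Rcm, Trib3 was called as well without R-Scm 24 h replicate 1, and in R-Scm 12 h none was called without R-Scm 12 h replicate 2. The share of all genes called in these fits with libraries left out is not given. Whether the moves in these counts are particular to the members was therefore not tested. The first 3 comparisons share the Rcm libraries, and the contrast of Rcm with Scm shares the Scm libraries with both S-Rcm comparisons.

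Most of the members' differences were below those thresholds. In Rcm against Scm 8 of the 10 members had no overlap between the 2 groups, all lower in Rcm, where 23.9% of all genes did not overlap in either direction. In R-Scm 12 h against Rcm it was 1 higher and 3 lower (23.4% of all genes in either direction), and in R-Scm 24 h against Rcm 4 higher (11.2%). In S-Rcm 12 h against Scm it was 1 higher and 7 lower (26.4%), and in S-Rcm 24 h against Scm 6 lower (19.5%). From 12 h to 24 h it was 2 higher in R-Scm (15.2%), and 5 higher and 2 lower in S-Rcm (17.2%). Over the 10 members the log2 fold change had a median of -0.275 for Rcm against Scm. After the move to Scm the median was -0.261 at 12 h and 0.267 at 24 h, and after the move to Rcm it was -0.537 and -0.168, where the median of all genes lay between -0.0077 and 0.019. From 12 h to 24 h it was 0.455 in R-Scm and 0.28 in S-Rcm. Several of these medians moved by over 1.5 times with 1 library. That of R-Scm 24 h was 0.145 without R-Scm 24 h replicate 3 and that of R-Scm 12 h was -0.404 without R-Scm 12 h replicate 3. That of S-Rcm 24 h was -0.11 without Scm replicate 2 or S-Rcm 24 h replicate 1, and that from 12 h to 24 h in R-Scm was 0.279 without R-Scm 24 h replicate 3. Without the 3 libraries named above the medians were -0.325 in Rcm against Scm, -0.182 in R-Scm 12 h, 0.347 in R-Scm 24 h and 0.443 from 12 h to 24 h in R-Scm, and the members without overlap were 5 in R-Scm 12 h and 8 for Rcm against Scm.

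**Figure D4:**
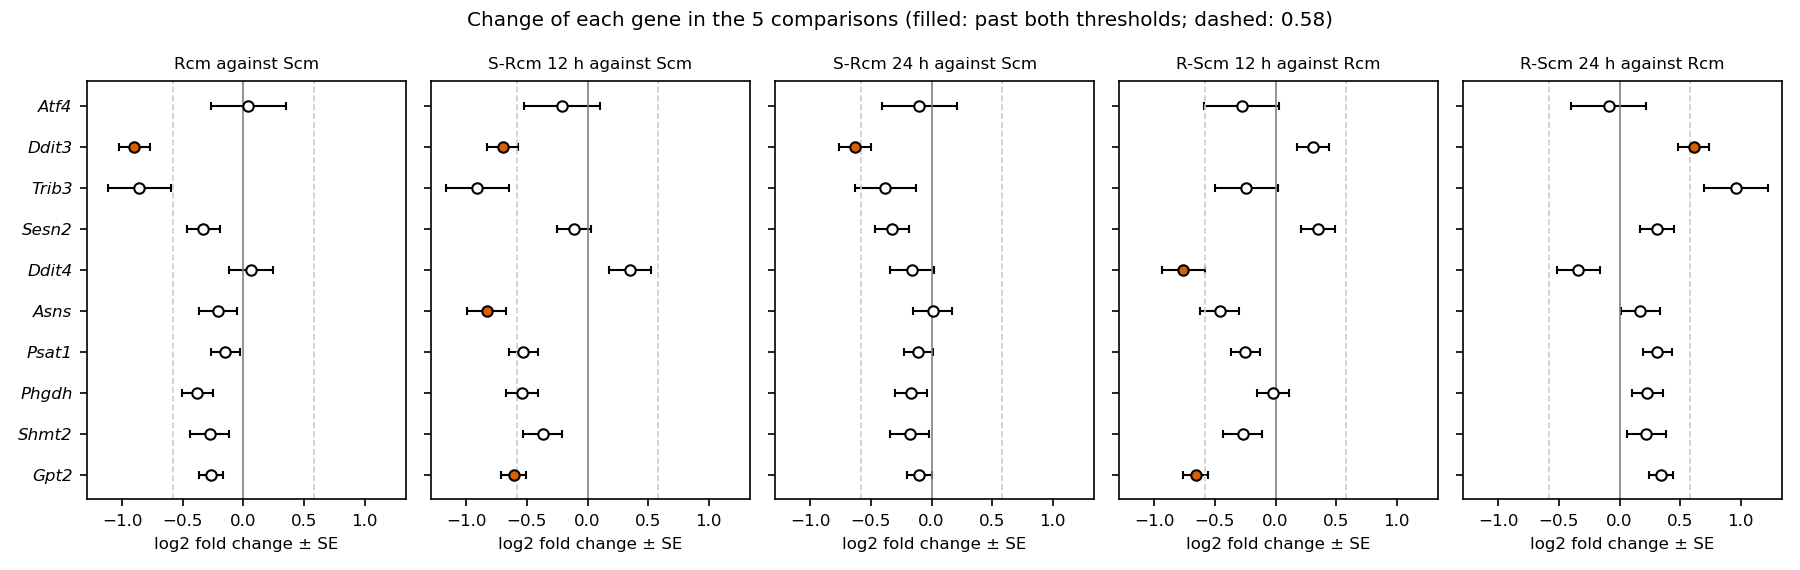
Log2 fold change ± SE (x axis) of the 10 genes in the 5 comparisons, with filled points past both thresholds and dashed lines at 0.58 in either direction. Ddit3 is filled in 4 of the 5 panels, Gpt2 in both 12 h panels, and Atf4 lies within 1 SE of 0 throughout.

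The members did not vary as 1 unit over the 18 libraries. The 5 enzymes correlated with each other at Pearson's r of 0.68 to 0.91 over their 10 pairs, and Trib3 correlated with them at 0.80 to 0.87. Ddit3 correlated at 0.79 with Phgdh, 0.73 with Trib3, 0.63 with Shmt2 and 0.46 with Asns, so that part of its values lay within the range of the enzymes. Atf4 correlated with the other 9 at 0.02 to 0.30, and Sesn2 and Ddit4 with each other at -0.10. These values describe libraries that share groups and scaling and carry no test. The genes outside the selection whose log2 CPM was closest to the mean of the members were Sars (r = 0.95), Mthfd1l (0.95), Chac1 (0.94), Yars (0.93) and Mars1 (0.93), of 13525 genes with a mean of at least 1 CPM. Of these, Sars, Yars and Mars1 charge tRNAs with serine, tyrosine and methionine, Mthfd1l is a mitochondrial one-carbon enzyme and Chac1 degrades glutathione. For Atf4 the closest were Pcgf1 (0.73), Gm6204 (0.66) and Gm12870 (0.63). In 4 of the 6 groups the members tended to be high in the same library. Scm replicate 2, Rcm replicate 3, R-Scm 12 h replicate 3 and R-Scm 24 h replicate 3 each held the highest of the 3 values for 8 of the 10 genes, where these libraries were the highest for 32.3% to 39.9% of all genes tested. In S-Rcm 12 h and S-Rcm 24 h no library was the highest for more than 5 of the 10.

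Genes of the wider pathway that the selection did not name were tested in lists written down with earlier results of these data known. They cover ATF4 stress targets (10 of 12 tested), amino acid transporters (10 of 10), further enzymes of serine, one-carbon and amino acid metabolism (11 of 12), cytosolic tRNA synthetases (18 of 18), ER chaperones and other genes of the IRE1 and ATF6 arms (12 of 12), eIF2alpha kinases and phosphatase parts (6 of 6) and further restraints of mTORC1 (8 of 8). Fgf21, Gdf15 and Cbs were too low to test. All adjusted p-values below are from edgeR's quasi-likelihood test over the 15381 genes. Because of how the lists were chosen, these tests are not independent support for the values of the members.

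In Rcm against Scm, 2 of the 10 tested stress targets fell and none rose. Chac1 was at 19.3 ± 2.10 CPM in Rcm and 34.9 ± 5.11 CPM in Scm (SD, n = 3), a log2 fold change of -0.85 ± 0.20 (adjusted p = 0.029). Atf5, a transcription factor related to ATF4, was at 175 ± 36.1 CPM against 279 ± 8.07 CPM (-0.67 ± 0.17, adjusted p = 0.047). All 10 fold changes of this list were negative, with a median of -0.38, where the median of all genes was 0.012. Without the 3 libraries named above the median of the list was -0.57. Atf3, another stress-induced factor, was -0.37 ± 0.17 (adjusted p = 0.308). The call of Chac1 was lost without Scm replicate 2 or 3 or Rcm replicate 1 or 2 (adjusted p from 0.0794 to 0.142), and that of Atf5 was lost without any 1 library other than Rcm replicate 3 (0.111 to 0.229) and with no filter on low counts (0.0614). Among the eIF2alpha kinases, Eif2ak2 (PKR, which senses double-stranded RNA and is an interferon-induced gene) rose by 1.36 ± 0.23 (adjusted p = 0.00352), and that call held in all 14 alternatives. No gene was called among the transporters, the further enzymes, the tRNA synthetases, the ER list or the mTORC1 list, where 0, 1, 1, 2 and 0 genes had an unadjusted p under 0.05 in edgeR and DESeq2 called 0 as well. The cystine transporter subunit Slc7a11 was -0.12 ± 0.39 (adjusted p = 0.901).

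At 12 h after the move to Rcm, 1 stress target, 1 transporter and 2 tRNA synthetases fell, and 3 genes of the ER list rose. Atf5 was at 128 ± 12.2 CPM, -1.12 ± 0.17 from Scm (adjusted p = 0.00488). Slc7a5, which carries leucine and other large neutral amino acids, was at 113 ± 6.54 CPM against 191 ± 4.12 CPM (-0.77 ± 0.13, adjusted p = 0.00657). Cars fell by 0.58 on the log2 scale (adjusted p = 0.0229) and Sars fell by 0.60 (adjusted p = 0.0168). In the opposite direction, the ER chaperone Hspa5 (BiP) was at 759 ± 21.2 CPM against 358 ± 4.51 CPM (1.09 ± 0.16, adjusted p = 0.00372). The chaperones Hsp90b1 (0.73 ± 0.13, adjusted p = 0.00867) and Calr (0.62 ± 0.07, adjusted p = 0.000156) rose as well. The calls of Atf5, Slc7a5, Hspa5 and Calr held in all 13 alternatives, and that of Hsp90b1 was lost without Scm replicate 1 (adjusted p = 0.0576). Those of Cars and Sars were lost without any Scm library or without S-Rcm 12 h replicate 1 or 2, at an adjusted p of 0.0584 to 0.102. Nupr1, a stress-induced chromatin protein, was at 25.7 ± 6.75 CPM against 14.6 ± 3.8 CPM without overlap (0.82 ± 0.25, adjusted p = 0.124), and is named after its values were seen. DESeq2 called it higher and Chac1 lower. At this time 10 of the 11 further enzymes and 16 of the 18 tRNA synthetases had negative values, where the median of all genes was 0.019. No further enzyme was called by edgeR, where 6 had an unadjusted p under 0.05, and DESeq2 called 1, the mitochondrial folate enzyme Aldh1l2. Mthfd2, which acts beside it, was -0.39 ± 0.13 (adjusted p = 0.157).

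At 12 h after the move to Scm the glycine transporter Slc6a9 fell from 31.9 ± 3.58 to 15.4 ± 1.43 CPM (-1.05 ± 0.18, adjusted p = 0.00248), and Hspa5 rose from 420 ± 23.8 to 770 ± 109 CPM (0.88 ± 0.16, adjusted p = 0.00437). Both calls held in all 14 alternatives. Ddit4l, the paralog of Ddit4, rose by 1.30 ± 0.33 (adjusted p = 0.0335) at 1.79 to 4.44 CPM in group means, whereas Ddit4 itself was lower. That call of Ddit4l was lost in 7 of 14 alternatives, among them each Rcm library left out and R-Scm 12 h replicate 2 or 3 left out (adjusted p from 0.0663 to 0.136). Slc7a11 was at 18.2 ± 5.03 CPM against 40.7 ± 20.2 CPM in Rcm, with a log2 fold change of -1.16 ± 0.40 that did not pass in edgeR (adjusted p = 0.126) and was called by DESeq2. Of the 10 stress targets none was called by edgeR, with 2 at an unadjusted p under 0.05, and DESeq2 called 1, Atf5. Without R-Scm 12 h replicate 3, the library in which Trib3 stood apart, the calls of stress targets summed over the 5 comparisons went from 3 (Atf5 in 2 comparisons and Chac1 in 1) to 6 and those of further enzymes from 0 to 4, and the calls of stress targets also went to 6 without R-Scm 24 h replicate 1. Hspa5 rose at 12 h in both directions of exchange, at the time when Gpt2 and Asns were at their lowest.

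At 24 h after either exchange no gene of the 7 lists was called by edgeR against the starting medium, and DESeq2 called 1 in each exchange, Chac1 higher in R-Scm and Hspa5 higher in S-Rcm. At an unadjusted p under 0.05 there were 2 stress targets, 3 transporters, 1 further enzyme, 7 tRNA synthetases, 2 ER genes, 2 eIF2alpha genes and no mTORC1 gene in R-Scm, and 1, 0, 0, 1, 2, 0 and 0 in S-Rcm. All 10 stress targets and all 18 tRNA synthetases had positive values in R-Scm 24 h, with medians of 0.28 and 0.21, or 0.43 and 0.36 without the 3 libraries named above. In S-Rcm 24 h, 8 of the 10 and 16 of the 18 had negative values, with medians of -0.27 and -0.05. The median of all genes was -0.0013 in R-Scm 24 h and 0.0061 in S-Rcm 24 h. Genes of 1 list can vary together between libraries, so that their signs are not separate observations.

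Between 12 h and 24 h in R-Scm, 3 stress targets, 3 transporters, 2 further enzymes and 4 tRNA synthetases rose, and in the ER list 1 rose and 1 fell. The stress targets were Chac1 (1.08 ± 0.20, adjusted p = 0.0145), Atf5 (0.89 ± 0.17, adjusted p = 0.0192) and Jdp2 (0.87, adjusted p = 0.00563), and the transporters were Slc6a9 (0.98, adjusted p = 0.0108), Slc7a5 (0.84, adjusted p = 0.00522) and Slc1a4 (0.74, adjusted p = 0.0029). Mthfd2 (0.59, adjusted p = 0.0325) and Aldh18a1, which starts proline synthesis (0.69, adjusted p = 0.0128), were the further enzymes, and Aars, Cars, Iars and Sars the synthetases. In the ER list Hspa5 fell by 1.01 (adjusted p = 0.00659) and Herpud1 rose by 0.93 (adjusted p = 0.0168). Without Rcm replicate 3 and R-Scm 24 h replicates 1 and 3, which leaves 1 library at 24 h, the calls of Chac1, Slc6a9, Aldh18a1 and Hspa5 were lost (adjusted p from 0.0547 to 0.132). Genes called here and not in the 5 comparisons against a starting medium were named after their values were seen. With only the 2 groups of this comparison in the fit, all 14 calls were lost, at adjusted p from 0.0893 (Hspa5) to 0.42 (Mthfd2). Without R-Scm 12 h replicate 1, the calls of Chac1, Atf5, Herpud1, Aldh18a1, Slc6a9, Aars, Mthfd2, Sars and Iars were lost, with adjusted p up to 0.114, and Iars through its size of 0.52. Without R-Scm 24 h replicate 3 those of Chac1, Atf5, Slc6a9, Mthfd2, Aldh18a1, Aars, Sars and Herpud1 were lost (adjusted p from 0.0589 to 0.128). Without R-Scm 12 h replicate 2 those of Chac1, Atf5, Mthfd2, Aldh18a1, Aars, Sars and Herpud1 were lost (0.0591 to 0.124), and without R-Scm 24 h replicate 2 those of Atf5, Mthfd2, Aars, Sars, Herpud1 and Iars (0.014 to 0.11). In S-Rcm over the same interval Slc7a5 rose by 0.70 (adjusted p = 0.0304) and Calr fell by 0.59 (adjusted p = 0.000618). The former was lost without any 1 library (adjusted p from 0.0536 to 0.158) and the latter without S-Rcm 12 h replicate 1 or S-Rcm 24 h replicate 1, where it fell by 0.57.

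**Figure D5:**
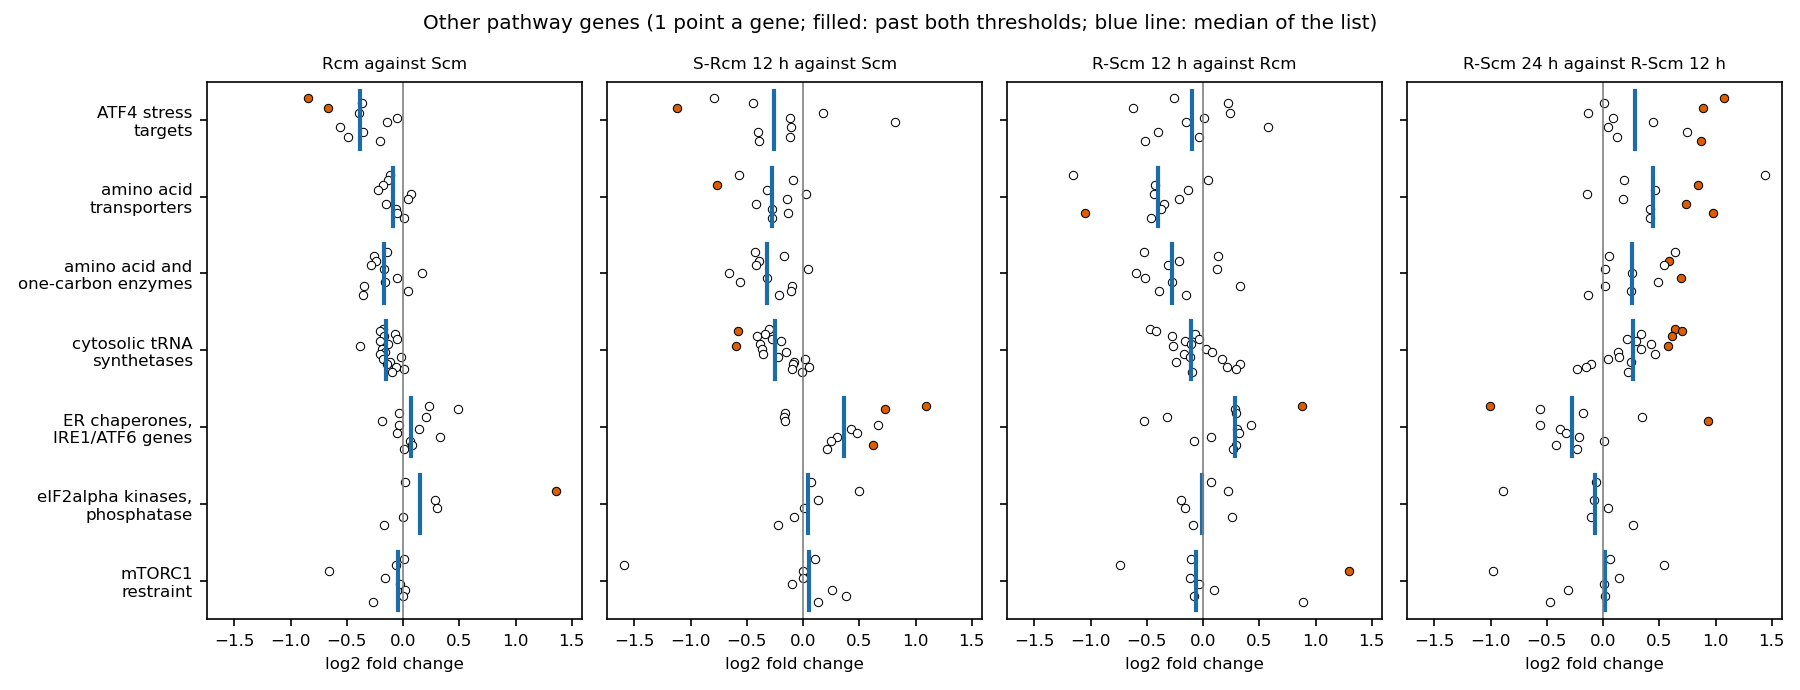
Log2 fold change (x axis) of each tested gene of the 7 lists in 4 comparisons, with 1 point a gene, filled where both thresholds were passed, and the list's median as a blue line. In S-Rcm 12 h the medians are -0.26 for stress targets and 0.36 for the ER list, and between 12 h and 24 h in R-Scm they are 0.28 and -0.28. Without the 3 libraries named in the text, which leaves 1 at 24 h, those in R-Scm are 0.47 and -0.23.

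Whether the signed changes of the exchanges differed was tested for the listed genes as the change of R-Scm from Rcm minus that of S-Rcm from Scm. Because the exchanges go in opposite directions, a gene that follows the medium by the same amount in both also passes, and the test does not compare sizes. At 24 h 1 of the 75 listed genes tested passed, Chac1, with a difference of 1.32 ± 0.28 (adjusted p = 0.0261). It was 0.82 ± 0.20 in R-Scm and -0.50 ± 0.20 in S-Rcm, and in every R-Scm library at 24 h it lay above all Rcm libraries and in every S-Rcm library below all Scm libraries. The call was lost without Scm replicate 2 or 3, Rcm replicate 1 or 2, any S-Rcm 24 h library or R-Scm 24 h replicate 3 (adjusted p from 0.0551 to 0.0832). Without the 3 libraries named above it was 1.18 ± 0.30 (adjusted p = 0.0479). At 12 h none of the listed genes passed in edgeR, where 13 had an unadjusted p under 0.05, and DESeq2 called 1, Slc6a9. Without R-Scm 24 h replicate 1 the calls summed over both times went from 1 to 7. Over all genes, 2.03% passed at 12 h and 1.37% at 24 h, so that the count of listed genes was not read as a result about the lists. For the members the same differences were 1.01 ± 0.18 for Ddit3 and -1.10 ± 0.25 for Ddit4 at 12 h, and 1.24 ± 0.18 for Ddit3 (from 0.61 and -0.63) and 1.34 ± 0.36 for Trib3 at 24 h, as a description. For Gpt2 and Asns at 12 h they were -0.05 ± 0.14 and 0.38 ± 0.22.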

How the data were processed

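RNA was extracted with the RNeasy mini kit and sequenced as paired-end mRNA libraries. The authors aligned reads to GRCm38 with HISAT2 and deposited raw counts per gene. The counting tool, strand setting and treatment of reads that match several genes are not given in the sources used here, which bears on Phgdh and its pseudogenes and on Ddit3. Counts of 14534906 to 20313715 per library were fitted here with edgeR 4.0.16 (R 4.3.3): filterByExpr, TMM scaling, robust quasi-likelihood over all 18 libraries with 12 residual degrees of freedom, and Benjamini-Hochberg adjustment over 15381 genes. CPM are counts scaled to a total of 1000000 with TMM factors, and log2 CPM used a prior count of 2. The test was checked on simulated data. DESeq2 1.42.0, other scalings and filters, a replicate block and left-out libraries were alternatives. The authors' methods set the thresholds of 0.58 and 0.05. The smallest exact p of 3 against 3 is 0.1, so members' libraries are described by overlap.

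The members and lists were chosen with earlier results of these data known. Named were the 10 members, from each list the called genes with the largest changes (up to 4) plus Chac1, Atf3, Slc7a11, Mthfd2 and Hspa5, the genes most alike to the members, and genes that share reads with a member. Coordinates and exon lengths are from GENCODE release 21 for mouse, promoter windows from RefSeq, and transcript matches from BLAST+ 2.17.0. Replicates of 1 group differed by more than sampling noise (chi-square per degree of freedom of 9.61 or more).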

Additional observations from a re-analysis of the deposited data

Results flagged for a closer look

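For 7 values of the members, every library of one exchange lay above the mean of its starting medium and every library of the other exchange lay below. For these the difference was not tested, because the genes were selected with results known. As the change of R-Scm from Rcm minus that of S-Rcm from Scm on the log2 scale, the differences at 12 h were 1.01 for Ddit3, 0.46 for Sesn2 and -1.10 for Ddit4. At 24 h they were 1.24 for Ddit3, 1.34 for Trib3, 0.64 for Sesn2 and 0.43 for Gpt2. For Chac1 at 24 h the difference of 1.32 passed the test of the difference itself (adjusted p = 0.0261, edgeR). It was the only 1 of 75 listed genes to pass, and the call was lost in 8 of 19 alternatives.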

How the results depend on the processing

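The depth of these libraries left all 10 members far above the filter, and 3 libraries a group limit the precision. No call of a member changed sign under any alternative. The share of all genes called under each alternative is not given, so the counts below stand without a background. DESeq2 called 2 members in R-Scm 24 h and likewise 2 for Rcm against Scm, and gave 7 calls of stress targets summed over the 5 comparisons (Chac1 and Atf5 in 3 each, Nupr1 in 1), 1 of a further enzyme, 2 of mTORC1 genes and 4 differences between exchanges. All counts of listed genes here are such sums, so that a gene called in 2 comparisons counts 2 times. With only the 2 compared groups in the fit, members called were 0 in R-Scm 12 h and R-Scm 24 h, 2 for Rcm against Scm and 0 from 12 h to 24 h in R-Scm, with 1 further enzyme and 0 mTORC1 genes. Upper-quartile scaling gave 0 members in R-Scm 24 h and 1 tRNA synthetase, and no filter on low counts also gave 0 members there. The adjusted p alone gave 2 members from 12 h to 24 h in S-Rcm, 2 further enzymes and 8 ER genes. An adjusted p under 0.01 gave, at 12 h, 1 member in either exchange, at 24 h 0 in either exchange, and from 12 h to 24 h 1 in R-Scm and 0 in S-Rcm, with 1 stress target, and 0 tRNA synthetases, mTORC1 genes and differences. The fit with the title's number as a replicate block, although the pairing had no ground in the data (deviations of same-numbered libraries correlated at -0.20 to 0.35, and 7 of 18 libraries matched best with their own number), gave 5 stress targets, 0 mTORC1 genes and 2 differences and moved no other count by over 1.5 times. Without the 3 libraries nearest to another group, chosen after seeing the data, which leaves R-Scm 24 h with 1 library and takes its spread from the other groups, members called were 1 in R-Scm 12 h and 2 for Rcm against Scm, with 5 stress targets and 7 differences, of which 4 were at 24 h. With each library left out in turn, members called ranged from 1 to 2 in S-Rcm 12 h, 0 to 0 in S-Rcm 24 h, 0 to 2 in R-Scm 12 h and R-Scm 24 h, 1 to 5 from 12 h to 24 h in R-Scm and 0 to 0 in S-Rcm, and the members' median ranged from 0.145 to 0.391 in R-Scm 24 h, -0.404 to -0.181 in R-Scm 12 h, -0.214 to -0.107 in S-Rcm 24 h, -0.564 to -0.502 in S-Rcm 12 h, -0.322 to -0.243 for Rcm against Scm, and from 12 h to 24 h 0.279 to 0.596 in R-Scm and 0.267 to 0.362 in S-Rcm. Stress targets ranged from 1 to 6, further enzymes from 0 to 4, tRNA synthetases from 0 to 2, eIF2alpha genes from 1 to 2, mTORC1 genes from 0 to 2 and differences from 0 to 7. Leaving out R-Scm 12 h replicate 3 gave the 6 stress targets and 4 enzymes, and R-Scm 24 h replicate 1 left out gave 6 stress targets and the 7 differences. Single members moved with 1 library too. Without R-Scm 12 h replicate 3 Trib3 went from 1.20 to 1.71 between 12 h and 24 h in R-Scm, and without the 3 libraries Ddit4 went from 0.41 to 0.10 there. The cause of these moves was not tested, beyond fewer libraries in the fits that leave some out.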
